A study of Homo sapiens with 6 samples.

Results

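The cyclins D and E, the kinases CDK4 and CDK6, the inhibitors CDKN1B and CDKN2A and the pocket protein RB1 control the passage of a cell from G1 into S phase. Their mRNAs were read in L428 cells by every probe set annotated to exactly one of these 10 listed genes, which gave 26 of the 54675 probe sets of the array (10 of 19775 genes named by a probe set of 1 symbol). All 10 genes had at least 1 probe set at or above the level filter, a mean log2 level of 7.11 or more over all arrays, and 21 of the 26 probe sets passed it. The other 5 (1 each of CCND1, CCND3, CCNE1, CDKN2A and RB1) lay below it and are given as values from a fit without the filter.

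L428 is an established cell line of classical Hodgkin lymphoma. A locked nucleic acid (LNA), a chemically stabilised oligonucleotide, was brought into the cells by nucleofection: one against miR-9 in the inhibitor group, one of scrambled sequence in the scrambled group. Total RNA was taken 9 h later. Each group held 3 arrays (Affymetrix HG-U133 Plus 2.0), numbered 1 to 3 in the labels, and separate cultures are not stated, so the p-values cover only variation among these arrays, which may be technical. All values below are the deposited log2 levels, differences are the inhibitor group minus the scrambled group, errors of group means are SDs (n = 3) and errors of differences are limma standard errors. Levels of different probe sets depend on their probes and were not ranked against each other; where a gap between probe sets is given, only its change between groups is read.

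In the textbook account, mitogenic signals raise the D cyclins, which bind CDK4 or CDK6 and begin the phosphorylation of RB1. RB1 then releases E2F factors, which switch on the E cyclins and the genes of DNA replication, and cyclin E with CDK2 completes the step. CDKN2A encodes an INK4 protein that blocks CDK4 and CDK6 and, from a separate first exon, ARF, which restrains MDM2, while CDKN1B holds back cyclin E and CDK2. In germinal centre B cells and their tumours, cyclins D2 and D3 and CDK6 are the forms most often discussed, and cyclin D1 is the form of mantle cell lymphoma.

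The inhibitor was directed against miR-9. Its mature strands, from the RefSeq entries of MIR9-1, MIR9-2 and MIR9-3 (GRCh38.p14), are shown because the comparison addresses loss of miR-9 function. The seed (bases 2 to 8) is in capitals.
hsa-miR-9-5p: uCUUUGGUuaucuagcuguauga
hsa-miR-9-3p: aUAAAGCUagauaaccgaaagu
The 5p strand is the same in the entries at chr1:156420392-156420414 (minus strand), chr5:88666902-88666924 (minus strand) and chr15:89368032-89368054 (plus strand). The labels do not say which strand the inhibitor matched. Loss of the microRNA itself was not measured here, and sites for it in the members' transcripts were not searched.

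The cells carried the markers of their label. All 7 Hodgkin markers lay above the filter on every array, with CCL17 between 12.54 and 12.83 and TNFRSF8 (CD30) between 10.35 and 10.73, whereas 0 of 7 T and NK cell, 1 of 5 myeloid and 3 of 6 B lineage markers had a mean above it. Of 7 fibroblast and endothelial markers 5 did, the highest being COL1A1 at 7.99 to 8.23, and the B cell gene MS4A1 (CD20) stayed between 6.63 and 6.81. Scrambled replicate 1 stood apart from the other 5 arrays. Its 90th percentile was 9.29, against 9.46 to 9.58 elsewhere, and the bacterial spike-in dap averaged 10.05 there, against 7.97 to 8.55. In the deposited values, differences grew with level: with the tested probe sets cut by level into 5 bins of like size, the medians from the dimmest to the brightest were -0.03, -0.005, 0.06, 0.14 and 0.19, and they lay between -0.007 and 0.02 in every bin after quantile normalization. For most members the value after quantile normalization is given as well, and for some the value without scrambled replicate 1 or another array. Whether the array's difference plays a part in a member's result was not tested.

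None of the 10 genes passed the threshold. Of the 21 tested probe sets, 0 had a limma adjusted p under 0.05, as had 0% of all 27307 tested probe sets. The member differences ran from -0.26 (CCND2 at 200952_s_at) to 0.44 (CDK6 at 224847_at, a 1.36-fold difference), with 14 above 0 and 7 below. That is close to the 66.9% of all tested probe sets that lay above 0. The median member difference was 0.09, beside 0.06 over all tested probe sets. Of the 21 member probe sets, 7 and 9 lay in bins 4 and 5 of level, counted from the dimmest. The medians of all tested probe sets in those bins were 0.14 and 0.19. At an unadjusted p under 0.05, limma gave 4 member probe sets in the higher direction, of CDK6, CCND2, CDKN2A and RB1, where 13.8% of all tested probe sets met that rule, and 0 in the lower direction, where 0.626% did. The groups did not overlap for 3 of 21 members in the higher direction (background 18.1%), namely CDK4, CDK6 and CCNE2, and for 0 in the lower direction (background 3.97%). The arrays read whole cultures, so a change in the share of cells in G1 and a change of mRNA per cell cannot be told apart.

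**Figure D1:**
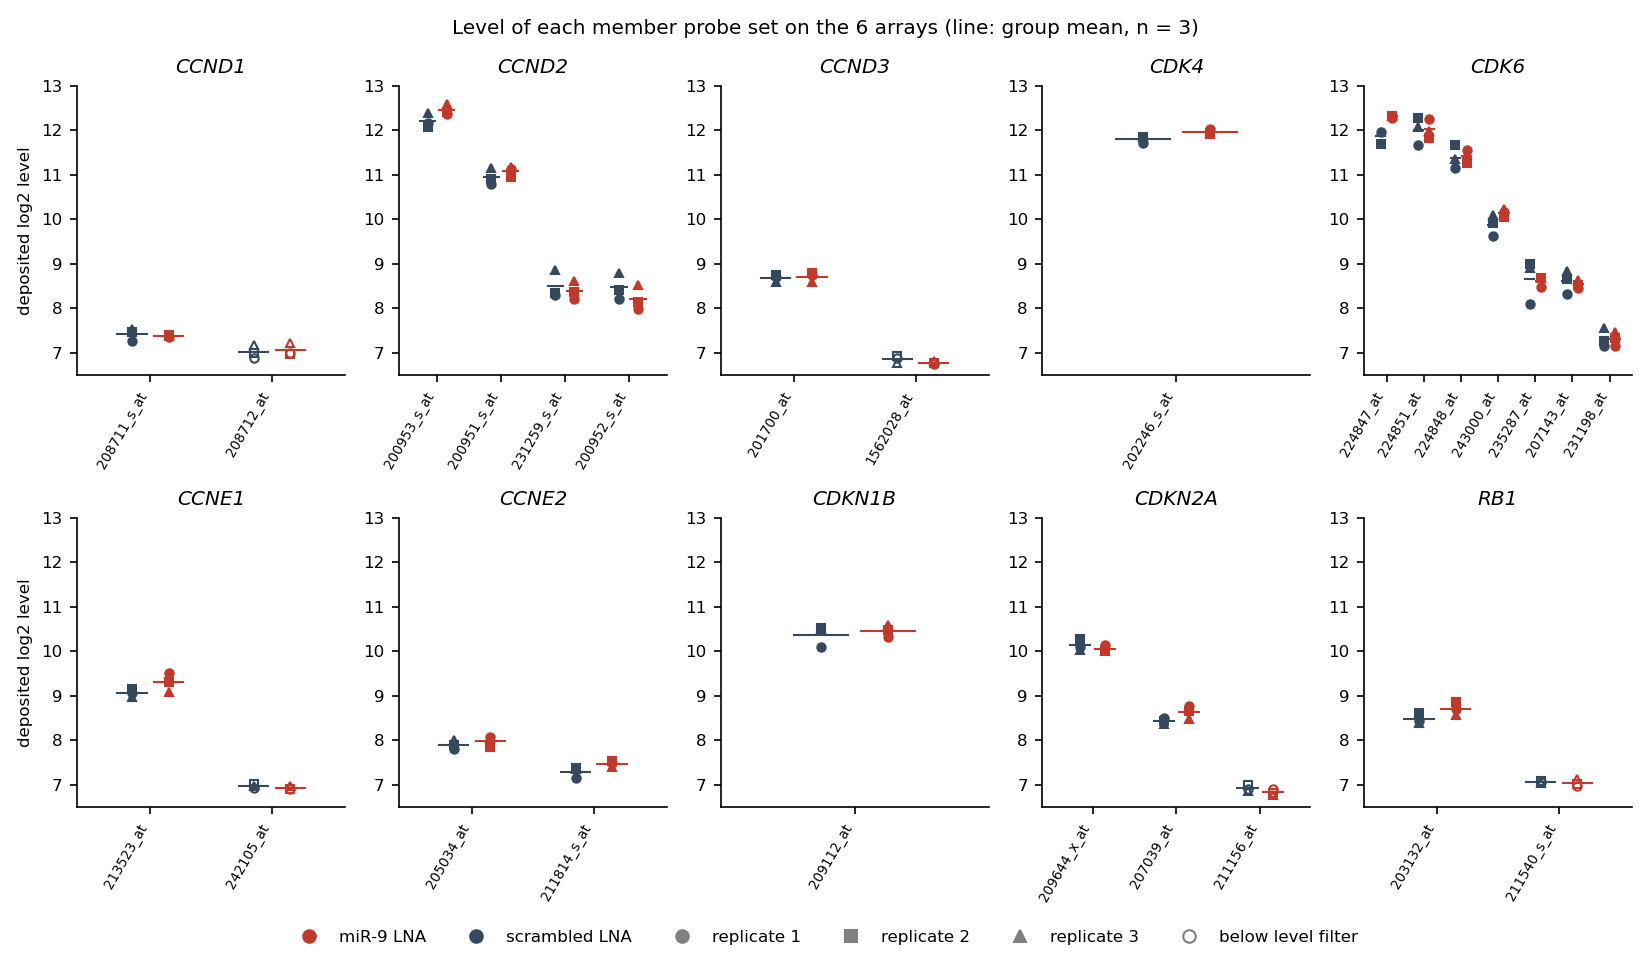
Deposited log2 level (y axis) of all 26 member probe sets (x axis), by gene, on each of the 6 arrays; red is the miR-9 LNA, dark blue the scrambled LNA, symbols mark the replicate number, short lines the group means, and open symbols the 5 probe sets below the level filter. At CDK6 224847_at the 3 miR-9 LNA arrays sit between 12.29 and 12.34, all above the scrambled arrays, while most other probe sets overlap.

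After quantile normalization the balance turned: 9 of 21 tested member probe sets lay above 0 and 12 below, beside 51.5% above 0 over all tested probe sets, and the member median was -0.04, beside 0.004. At an unadjusted p under 0.05 there were then 0 members higher (background 2.38%) and 1 lower, CDKN2A at 209644_x_at (background 2.17%). Only CCNE2 at 211814_s_at kept groups that did not overlap in the higher direction (background 5.98%), and CDKN2A at 209644_x_at had them in the lower direction (background 5.72%). Without scrambled replicate 1, 11 of 21 lay above 0 (background 63.2%), with a member median of 0.04, and limma gave 2 members higher (CDK6 at 224847_at and CDKN2A at 207039_at, background 10%) and 2 lower (CDK6 at 235287_at and 207143_at, background 3.13%) at an unadjusted p under 0.05. With the replicate number as a block, limma gave 6 members higher (background 21.8%) and 1 lower, CCND2 at 200952_s_at (background 1%), and still 0 at an adjusted p under 0.05.

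**Figure D2:**
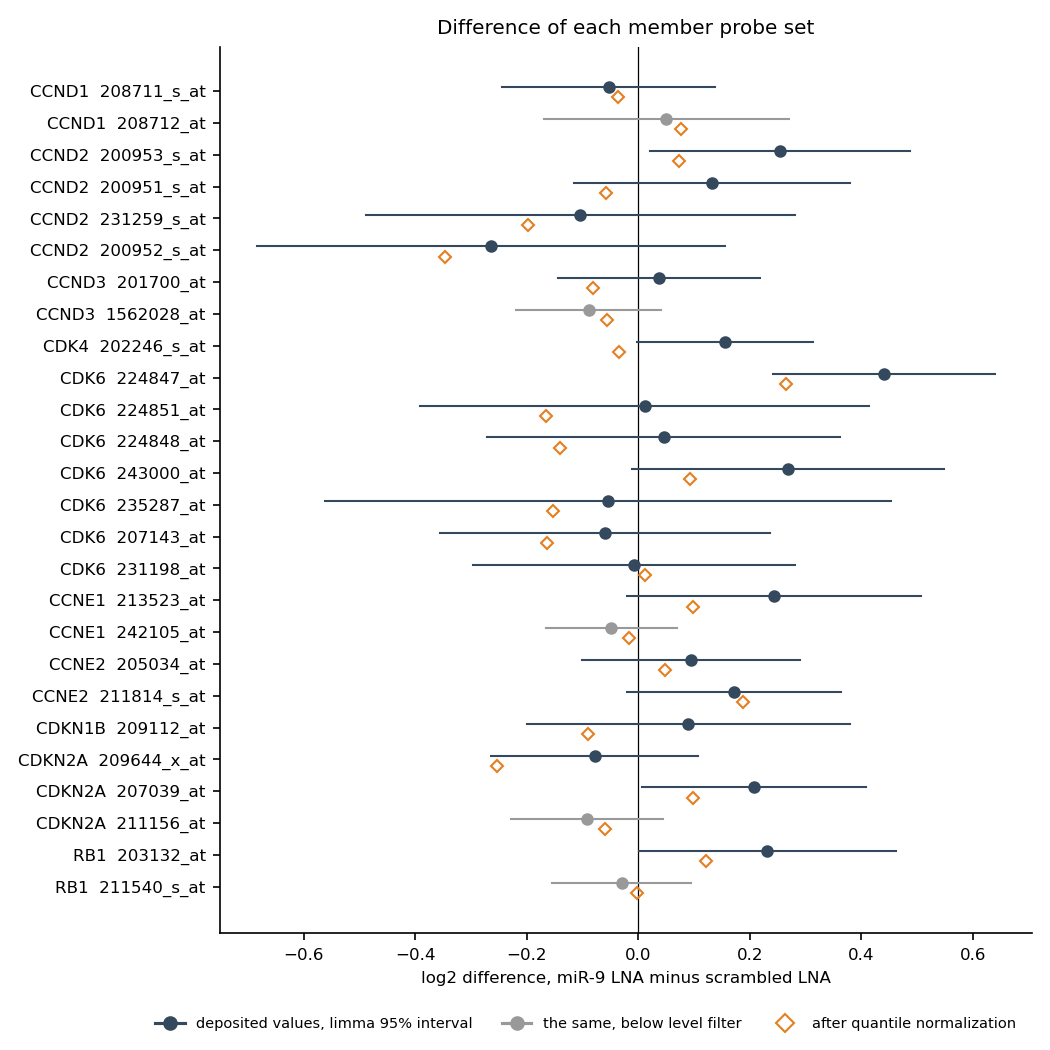
Log2 difference (x axis, inhibitor group minus scrambled group) of each member probe set (y axis); filled circles with lines are the deposited values with limma's 95% interval (grey below the level filter), open diamonds the same difference after quantile normalization. The diamonds lie to the left of the circles for most bright probe sets, and CDK6 224847_at, at 0.44 in the deposited values, is at 0.27 after normalization.

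The D cyclins are the first to respond to growth signals. CCND2 was read by 4 probe sets, and they parted into pairs. At 200953_s_at CCND2 was at 12.37, 12.42 and 12.60 on miR-9 LNA replicates 1 to 3 and at 12.17, 12.08 and 12.39 on the scrambled replicates. The groups overlapped only through scrambled replicate 3, which lay just above miR-9 LNA replicate 1. The difference was 0.25 ± 0.10 (95% interval 0.02 to 0.49, limma adjusted p = 0.327), and it was 0.07 after quantile normalization.

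The second bright probe set of CCND2, 200951_s_at, was at 11.13, 10.95 and 11.18 in the inhibitor group and at 10.80, 10.91 and 11.15 in the scrambled group. Its difference was 0.13 ± 0.11 (95% interval -0.11 to 0.38, limma adjusted p = 0.563), and it turned to -0.06 after quantile normalization. The dimmer pair leaned the other way. At 200952_s_at CCND2 was at 7.98, 8.14 and 8.53 in the inhibitor group and at 8.22, 8.42 and 8.80 in the scrambled group, with differences of -0.24, -0.28 and -0.27 between same-numbered arrays.

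The group means of CCND2 at 200952_s_at, 8.21 ± 0.28 and 8.48 ± 0.29, differed by -0.26 ± 0.18 (limma adjusted p = 0.503), and replicate 3 was the highest array of both groups. Fitting the number as a block gave a limma adjusted p of 0.159. The block gave the same limma adjusted p in the higher direction for CCND2 at 200953_s_at, CDK6 at 224847_at, CDKN2A at 207039_at and RB1 at 203132_at. The difference of CCND2 at 200952_s_at was -0.35 after quantile normalization and -0.39 without scrambled replicate 1. It was -0.42 without miR-9 LNA replicate 3, -0.15 without miR-9 LNA replicate 1 and -0.10 without scrambled replicate 3. The remaining CCND2 probe set, 231259_s_at, was at 8.21, 8.37 and 8.61 against 8.30, 8.34 and 8.86, which differed by -0.10 ± 0.16 (limma adjusted p = 0.776). That difference was -0.20 after quantile normalization and also without scrambled replicate 1, -0.01 without miR-9 LNA replicate 1, and turned to 0.07 without scrambled replicate 3. It followed 200952_s_at across the 6 arrays (Pearson r = 0.925, arrays of both groups, a description). The gap between 200953_s_at and 200952_s_at within an array was 4.07 to 4.39 in the inhibitor group and 3.59 to 3.95 in the scrambled group, ranges that did not overlap. This pair was chosen for its contrast, so the gap is a description and no test of it is given. It sets a bright against a dim probe set in the deposited values, where differences grew with level. The gap was not taken after quantile normalization.

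CCND3 is the cyclin D form prominent in proliferating germinal centre cells. At 201700_at it was at 8.75, 8.79 and 8.59 in the inhibitor group and at 8.70, 8.74 and 8.59 in the scrambled group, and replicate 3 was lowest in both groups. The difference was 0.04 ± 0.08, with a 95% interval of -0.14 to 0.22 (limma adjusted p = 0.832), and it was -0.08 after quantile normalization. The dim CCND3 probe set 1562028_at stayed between 6.75 and 6.92 on all arrays.

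CCND1 was low, at 7.55 or less on every array at both probe sets. At 208711_s_at CCND1 was at 7.35, 7.40 and 7.38 in the inhibitor group and at 7.27, 7.48 and 7.55 in the scrambled group, so that the scrambled arrays lay on either side of the others. The difference was -0.05 ± 0.08 (limma adjusted p = 0.771). At 208712_at, below the filter, CCND1 lay between 6.88 and 7.22 and differed by 0.05 ± 0.10.

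CDK4 and CDK6 are the catalytic partners of the D cyclins. CDK4, read by 202246_s_at alone, was at 12.02, 11.95 and 11.91 in the inhibitor group and at 11.71, 11.85 and 11.85 in the scrambled group. The groups did not overlap, and a two-sided exact permutation test gave 0.1, the smallest p that 3 against 3 arrays allow. Any groups of 3 that do not overlap give this p, so it adds nothing to the non-overlap. The group means, 11.96 ± 0.06 and 11.80 ± 0.08, differed by 0.16 ± 0.07 (limma adjusted p = 0.350), close to the 0.19 of the brightest bin of all probe sets. After quantile normalization CDK4 differed by -0.03 and the groups overlapped.

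CDK6 had 7 probe sets, all tested, and their differences ran from -0.06 to 0.44. At 224847_at CDK6 was at 12.29, 12.34 and 12.33 in the inhibitor group and at 11.97, 11.69 and 11.97 in the scrambled group. Every miR-9 LNA array lay above every scrambled array, and the miR-9 LNA arrays were nearly level with each other (SD 0.03, against 0.16 in the scrambled group). The difference of 0.44 ± 0.09 (95% interval 0.24 to 0.64, limma adjusted p = 0.296) was the largest of any member and the lowest member p, and shared its adjusted p with the lowest of all tested probe sets. It was 0.49 without scrambled replicate 1 and 0.27 after quantile normalization, where scrambled replicate 1 (12.22) passed miR-9 LNA replicate 1 (12.12) and the groups overlapped.

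The probe sets 224851_at and 224848_at of CDK6 gave differences near 0. At 224851_at the levels were 12.27, 11.82 and 11.99 in the inhibitor group and 11.67, 12.29 and 12.09 in the scrambled group, a difference of 0.01 ± 0.17 (limma adjusted p = 0.979). At 224848_at they were 11.57, 11.27 and 11.47 against 11.16, 11.66 and 11.35, a difference of 0.05 ± 0.14 (limma adjusted p = 0.887). These probe sets of CDK6 followed each other over the 6 arrays (Pearson r = 0.935, a description), and their r with 224847_at was -0.245 and -0.208. Scrambled replicate 1 was lowest and scrambled replicate 2 highest in each.

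Of the other CDK6 probe sets, 243000_at was at 10.16, 10.06 and 10.23 in the inhibitor group and at 9.62, 9.93 and 10.09 in the scrambled group. Its difference of 0.27 ± 0.12 (limma adjusted p = 0.360) was 0.14 without scrambled replicate 1 and 0.09 after quantile normalization. At 235287_at CDK6 was at 8.49, 8.68 and 8.68 against 8.11, 8.99 and 8.91, where scrambled replicate 1 lay below and the other scrambled arrays above all miR-9 LNA arrays. The difference there was -0.05 ± 0.22 with all arrays (limma adjusted p = 0.916) and -0.34 without scrambled replicate 1 (limma adjusted p = 0.300).

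The same array lay lowest at 207143_at, where CDK6 was at 8.47, 8.53 and 8.64 against 8.33, 8.65 and 8.84. That difference was -0.06 ± 0.13 (limma adjusted p = 0.839), and -0.20 without scrambled replicate 1 (limma adjusted p = 0.378). The dimmest, 231198_at, lay between 7.14 and 7.55 and differed by -0.008 ± 0.12. In all, 4 CDK6 probe sets lay above 0 and 3 below, and after quantile normalization 3 above and 4 below, so no direction could be given for the gene.

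**Figure D3:**
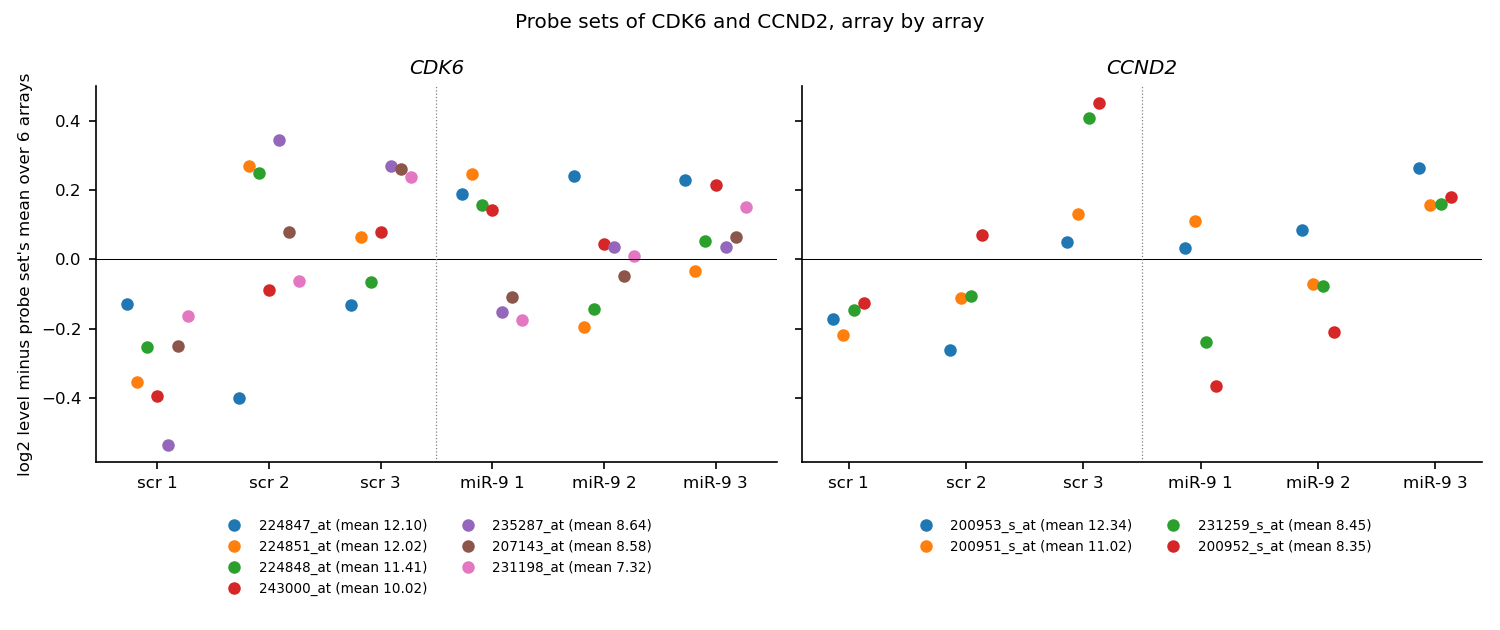
Log2 level minus the probe set's own mean over 6 arrays (y axis) on each array (x axis, scrambled LNA left of the dotted line, miR-9 LNA right), for the 7 probe sets of CDK6 and the 4 of CCND2. CDK6 224847_at is below its mean on all 3 scrambled arrays and above it on all 3 miR-9 LNA arrays, whereas 224851_at is at its lowest on scrambled replicate 1 and its highest on scrambled replicate 2.

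The E cyclins act with CDK2 at the entry into S phase and are themselves E2F targets. CCNE1 at 213523_at was at 9.52, 9.32 and 9.09 in the inhibitor group and at 9.06, 9.16 and 8.97 in the scrambled group. The groups overlapped because miR-9 LNA replicate 3 lay below scrambled replicate 2, while the same-numbered pairs differed by 0.46, 0.16 and 0.11, all in the higher direction. The group difference was 0.24 ± 0.11 (95% interval -0.02 to 0.51, limma adjusted p = 0.370), 0.14 without miR-9 LNA replicate 1, and 0.10 after quantile normalization. The probe set 242105_at of CCNE1, below the filter, lay between 6.90 and 7.02 and differed by -0.05 ± 0.05.

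CCNE2 had differences above 0 at both of its probe sets, and neither passed the threshold. At 211814_s_at CCNE2 was at 7.48, 7.52 and 7.39 in the inhibitor group and at 7.14, 7.39 and 7.35 in the scrambled group. The groups just failed to overlap, which fixes the two-sided exact permutation p at 0.1. The difference was 0.17 ± 0.08 (limma adjusted p = 0.379) and 0.19 after quantile normalization, and without scrambled replicate 1 it was 0.10. At 205034_at CCNE2 was at 8.07, 7.86 and 8.05 against 7.80, 7.90 and 7.99, a difference of 0.09 ± 0.08 (limma adjusted p = 0.598). Leaving out 1 array, that difference ran from 0.04 without scrambled replicate 1 to 0.16 without miR-9 LNA replicate 2. It was 0.02 after quantile normalization of the 5 arrays other than scrambled replicate 1. CCNE1 and CCNE2 kept their higher direction at 213523_at, 205034_at and 211814_s_at under every one of 15 alternative settings. CCNE1 at 242105_at, below the filter, kept its lower direction under all 15 as well, from -0.08 to -0.01. These settings reuse the same arrays, and the filters, the variance model and the replicate block leave a difference unchanged. Such settings could not reverse a direction, and the share of all tested probe sets that kept theirs was not taken.

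The inhibitors gave no common direction. CDKN1B, which restrains cyclin E and CDK2, was at 10.32, 10.47 and 10.58 in the inhibitor group and at 10.10, 10.51 and 10.49 in the scrambled group at 209112_at. Apart from scrambled replicate 1, the lowest array, the levels were interleaved. The difference of 0.09 ± 0.12 (95% interval -0.20 to 0.38, limma adjusted p = 0.743) was -0.04 without that array and -0.09 after quantile normalization.

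CDKN2A was read by 3 probe sets, which the annotation does not assign to the INK4 or the ARF transcript. At 207039_at CDKN2A was at 8.76, 8.66 and 8.48 in the inhibitor group and at 8.51, 8.42 and 8.36 in the scrambled group, higher in all same-numbered pairs, with an overlap between miR-9 LNA replicate 3 and scrambled replicate 1. The difference was 0.21 ± 0.09 (limma adjusted p = 0.338), 0.25 without scrambled replicate 1 and 0.10 after quantile normalization. At 209644_x_at CDKN2A was at 10.14, 10.02 and 10.01 against 10.09, 10.27 and 10.03, a difference of -0.08 ± 0.08 (limma adjusted p = 0.650), which was -0.01 without scrambled replicate 2 and -0.13 without scrambled replicate 3.

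After quantile normalization 209644_x_at was at 10.02, 9.97 and 9.91 in the inhibitor group and at 10.31, 10.30 and 10.05 in the scrambled group, so that the groups no longer overlapped and CDKN2A differed there by -0.25. The limma adjusted p of that difference was 0.900. The name of this probe set ends in _x_at, which the manufacturer gives to sets with probes that may also match other transcripts, so its signal may not be CDKN2A alone. The dim CDKN2A probe set 211156_at averaged 6.84 and 6.93 and differed by -0.09 ± 0.06. Probe sets 207039_at and 209644_x_at thus lay on opposite sides of 0 in the deposited values and after normalization.

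RB1, the protein that the D cyclin kinases inactivate, was at 8.70, 8.87 and 8.56 in the inhibitor group and at 8.43, 8.62 and 8.38 in the scrambled group at 203132_at. Replicate 2 was highest and replicate 3 lowest of the miR-9 LNA arrays, and the scrambled arrays had the same order, so that each pair differed by 0.18 to 0.27 although the groups overlapped. The difference was 0.23 ± 0.10 (95% interval 0.0007 to 0.46, limma adjusted p = 0.347), 0.21 without scrambled replicate 1 and 0.12 after quantile normalization. The RB1 probe set 211540_s_at, below the filter, lay between 6.98 and 7.12 and differed by -0.03 ± 0.05.

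The wider pathway was read as well. Of 44 further genes of G1 and S entry (E2F and DP factors, other pocket proteins and inhibitors, CDK2 and its activators, the ubiquitin ligase subunits that remove these proteins, and origin licensing factors), 43 were on the array under their own name and 38 had a tested probe set, of which the brightest was used. At a limma adjusted p under 0.05, 0 of 38 passed. Above 0 lay 33 (background 66.9%) and below 0 lay 5, with a median difference of 0.17 beside 0.06 over all tested probe sets, and after quantile normalization 23 of 38 lay above 0 (background 51.5%) with a median of 0.02 beside 0.004. At an unadjusted p under 0.05 limma gave 9 higher (background 13.8%) and 0 lower (background 0.626%). After normalization it gave 0 higher (background 2.38%) and 1 lower, E2F4 (background 2.17%). These backgrounds cover all levels, whereas each gene here was read at its brightest tested probe set. Most of the 38 lay above a mean level of 8.37, in bins 4 and 5 of level counted from the dimmest. The medians of all tested probe sets in those bins were 0.14 and 0.19. A background of like level was not taken for the counts.

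By role, the E2F and DP factors had the highest median, 0.22 over 10 genes with 8 above 0, and after quantile normalization 0.07 with 7 above 0. The 10 genes of protein turnover had a median of 0.16, all above 0, and 0.006 after normalization with 7 above 0. All 7 cyclins, CDKs and activators (median 0.16) and all 4 origin factors (median 0.19) also lay above 0. After normalization their medians were both 0.01, with 4 and 2 above 0. Of 5 other pocket proteins and partners 3 lay above 0 (median 0.04), and 2 after normalization (median -0.04). The background above 0 was 66.9%, and 51.5% after normalization. Only 2 other CDK inhibitors were tested, CDKN1A at -0.06 ± 0.11 and CDKN2D at 0.06 ± 0.06.

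CDC25A, the phosphatase that activates CDK2, had the lowest p of these genes, at 9.49 ± 0.03 in the inhibitor group and 9.29 ± 0.04 in the scrambled group. Its difference was 0.20 ± 0.06 (limma adjusted p = 0.296), and 0.05 after quantile normalization. TFDP1, the DNA-binding partner of E2F factors, differed by 0.25 ± 0.08 (limma adjusted p = 0.296), SKP2, which marks CDKN1B for destruction, by 0.19 ± 0.06 (limma adjusted p = 0.299), and the repressor E2F8 by 0.25 ± 0.08 (limma adjusted p = 0.299). The groups did not overlap in CDC25A, TFDP1, SKP2 and E2F8, which were named for their small p. Over the whole list they did not overlap in 12 of 38 genes in the higher direction (background 18.1%, over all levels). After quantile normalization the 4 differences were 0.05, 0.05, 0.03 and 0.12. In the lower direction, LIN37 of the DREAM complex differed by -0.08 ± 0.06, the repressive factor E2F4 by -0.10 ± 0.09, MYBL2 by -0.04 ± 0.07 and the activator E2F1 by -0.04 ± 0.07 (limma adjusted p from 0.570 to 0.809).

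**Figure D4:**
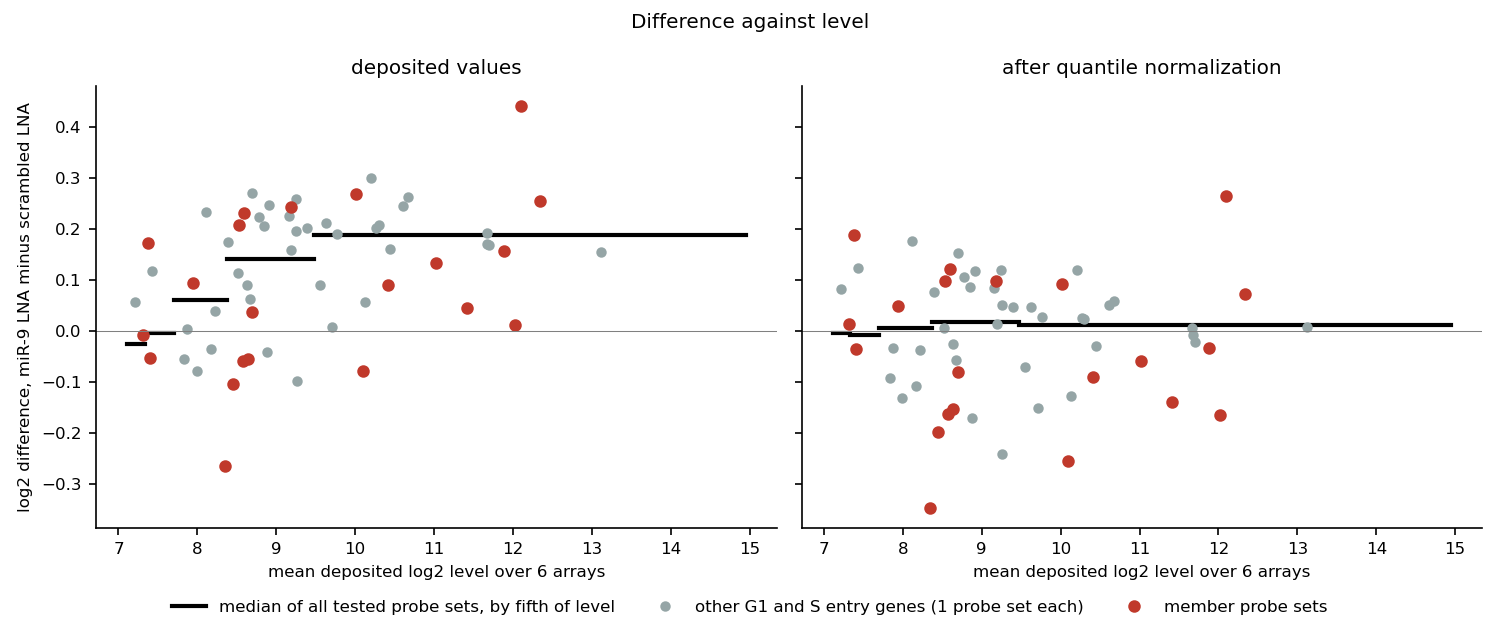
Log2 difference (y axis, inhibitor group minus scrambled group) against the mean deposited log2 level over 6 arrays (x axis), in the deposited values (left) and after quantile normalization (right), for the 21 tested member probe sets (red), 38 further G1 and S entry genes (grey) and the medians of all tested probe sets in 5 bins of level (black lines). The black lines climb from -0.03 to 0.19 on the left and lie between -0.007 and 0.02 on the right, where the members scatter on both sides of 0.

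Promoters were searched for the consensus of E2F factors, which links RB1 to its target genes. The letters were TTTCCCGC, TTTCGCGC, TTTGCCGC and TTTGGCGC on either strand, in RefSeq windows of 250 bases before to 50 after each annotated start (GRCh38.p14). Of 35116 windows in the table, 3.31% held a match. The members had 11 windows for 7 genes (CCND3, CDK4, CDK6, CCNE1, CDKN1B, CDKN2A and RB1), and 0 held one. CCND1, CCND2 and CCNE2 had no window and were not searched. With a share of 3.31% over all windows, 11 windows are too few to read 0 as a difference. Of 61 windows of the surrounding G1 and S entry genes, 11 held a match. Among the surrounding genes named above, the matches stood in TFDP1, CDC25A and E2F1. Each is shown with 16 bases on either side and the match in capitals, since these are the named genes in which the E2F letters stand near the start.
CDC25A, chr3:48188438-48188477 (minus strand): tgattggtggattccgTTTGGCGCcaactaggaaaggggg
TFDP1, chr13:113584617-113584656 (plus strand): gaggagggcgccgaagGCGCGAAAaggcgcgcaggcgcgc
E2F1, chr20:33686382-33686421 (minus strand): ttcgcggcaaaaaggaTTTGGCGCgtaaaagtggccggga
Of the 11 surrounding genes with a match, all tested, 10 lay above 0 in the deposited values (33 of 38 in the whole list) and 6 after quantile normalization (23 of 38). E2F1 was the one below 0 in the deposited values, and its difference was 0.0089 with array weights. The E2F1 stretch holds a further match on the other strand, left in lower case. A match is a description of the letters and not a site shown to be bound.

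The profiles most like those of the members were sought among the brightest tested probe sets of 12366 other genes. For the 3 members whose brightest probe set had the widest range over the 6 arrays, the highest Pearson r were with ZNF33A and AMPD2 for CDK6 at 224847_at (r = 0.994 each, range 0.64), NDC80 and RRM1 for CCNE1 at 213523_at (r = 0.997 and 0.996, range 0.55), and KIAA0753 and RCN1 for CCND2 at 200953_s_at (r = 0.995 each, range 0.52). With 6 arrays that share their normalization and the level trend, many genes come this close: r was above 0.95 for 45 genes with CDK6, 257 with CCNE1 and 61 with CCND2.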

How the data were processed

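Total RNA of 6 L428 samples was hybridized to Affymetrix HG-U133 Plus 2.0 arrays. The authors deposited 1 log2 value per probe set and array; the submitters' processing notes name affy and RMA, versions are not given in the sources used here, and the files name no genome build. According to the series text the authors filtered out invariant or unexpressed genes and used limma, without a stated threshold. Here 62 controls were dropped, and the 27307 probe sets with a mean at or above the median of all (7.11) were tested with limma 3.58.1 in R 4.3.3 (lmFit, eBayes, two-sided, Benjamini-Hochberg over all tested, threshold 0.05). The number of arrays, 3 per group, limits the precision. The platform annotation gave 41091 probe sets 1 symbol, 1801 several and 11721 none, and 41037 matched GRCh38.p14 by Entrez ID. Members, lists and tests were chosen with earlier results of these data known. The rule names every member probe set, the 4 surrounding genes of smallest p in each direction, and the 2 genes most like each of 3 members.

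As a check of the replicate numbers, each array's deviation from its group mean was correlated with those of the other group. Same numbers gave r = 0.231, 0.193 and 0.634, different numbers -0.429 to 0.168. By these correlations the numbers may pair the arrays, though the labels do not say what a number shares. The reported tests are unpaired, and the block is an alternative. Alternatives covered the filter, normalization, variance model, array weights, the replicate block, the probe set of a gene and leaving out each array. The script was tested on simulated data. Figures used matplotlib 3.10.9 in Python 3.11.15.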

Additional observations from a re-analysis of the deposited data

How the results depend on the processing

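No member passed a limma adjusted p of 0.05 under any alternative, and 13 of 26 member probe sets kept their direction under all 15 alternatives for single probe sets, 2 of which (both with quantile normalization: of the 5 arrays other than scrambled replicate 1, and with the replicate block) were chosen after seeing the data. The filters, the intensity trend with robust prior and the replicate block leave a difference unchanged, so they could not reverse a direction. Quantile normalization with the block gives the same difference as without it. The share of all tested probe sets that kept their direction was not taken. The count of members at a limma unadjusted p under 0.05 was 4 higher (background 13.8%) and 0 lower (background 0.626%). It was 6 and 0 with no filter and 3 and 0 with array weights. With the filter at the 75th percentile, and with an intensity trend and robust prior, it was 2 and 0. After quantile or cyclic loess normalization it was 0 higher and 1 lower (background 2.38% and 2.17% after quantile normalization). Either added alternative gave 1 higher and 4 lower. The replicate block alone gave 7 in all, 6 higher (background 21.8%) and 1 lower (background 1%). Leaving out 1 array gave 1 to 5 such members, 1 to 4 higher and 0 to 2 lower. There was 1 in all without miR-9 LNA replicate 2, 2 without miR-9 LNA replicate 1 or scrambled replicate 2, and 5 without miR-9 LNA replicate 3. Without scrambled replicate 1 there were 2 higher (background 10%) and 2 lower (background 3.13%). For the settings printed without a background, the share over all tested probe sets was not taken. Those counts are therefore not read as results about the members. The median member difference, 0.089, was 0.041 with no filter, 0.028 with array weights, 0.044 without scrambled replicate 1, 0.149 without scrambled replicate 2 and 0.142 without scrambled replicate 3. It was -0.036 after quantile normalization, with or without the replicate block, -0.044 after cyclic loess and -0.061 after quantile normalization of 5 arrays. The replicate block, whose pairing comes from the data, changed no adjusted call. Directions reversed as follows, and the cause was not tested. After quantile normalization, with or without the block, CCND2 at 200951_s_at was -0.058, CCND3 at 201700_at -0.081, CDK4 -0.034, CDK6 at 224851_at -0.165, at 224848_at -0.14 and at 231198_at 0.013, and CDKN1B -0.091. After cyclic loess these were -0.064, -0.084, -0.032, -0.17, -0.15, 0.0087 and -0.11, and RB1 at 211540_s_at was 0.0038. With 5 arrays normalized, CCND1 at 208712_at was -0.0025, CCND2 at 200951_s_at -0.061, CCND3 at 201700_at -0.020, CDK6 at 224851_at -0.25 and at 224848_at -0.18, and CDKN1B -0.16. With array weights, CDK6 at 224851_at was -0.24, at 224848_at -0.17 and at 231198_at 0.0027, CDKN1B -0.0098 and E2F1 0.0089. Leaving out 1 array, ranges that crossed 0 were -0.13 to 0.0046 and -0.026 to 0.13 for CCND1 (208711_s_at, 208712_at), -0.21 to 0.075 for CCND2 at 231259_s_at, -0.0079 to 0.098 for CCND3 at 201700_at, -0.16 to 0.15, -0.070 to 0.18, -0.34 to 0.11, -0.20 to 0.056 and -0.092 to 0.11 for CDK6 (224851_at, 224848_at, 235287_at, 207143_at, 231198_at), -0.045 to 0.16 for CDKN1B and -0.071 to 0.016 for MYBL2.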
